A study of Mus musculus with 12 samples.

Results

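The genes described here are those of mouse chromosome 11 that were well expressed in embryoid bodies, followed in a line without the histone acetyltransferase Gcn5 and in the floxed line it is compared with. A gene was included when its Ensembl identifier lies on chromosome 11 in the mouse genome build mm10 (GENCODE annotation) and its mean log2(value + 1) over the 12 samples was at least 6. Kat2a, which encodes Gcn5, and the imprinted gene Grb10 were left out. This gave 978 genes, which are 68.5% of the 1428 chromosome 11 genes in the table and 5.35% of its 18269 genes. They start between positions 3125904 and 121673153, and 935 of them are protein coding. The genes were chosen by their mean level and by lying on a chromosome already seen to be higher in the null line, so that higher level is described below without a test.

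The study measured RNA in embryoid bodies, which are aggregates of differentiating embryonic stem cells, at days 3 and 5 of differentiation. The control group was line 4_1 (Gcn5fx/fx, both Gcn5 alleles floxed) and the other was line 4C2 (Gcn5-/-, null), both on a C57BL/6 background, with 3 samples of each line at each day. Each genotype is represented by 1 line, so a difference between the genotypes and a difference between these lines cannot be told apart. The libraries were made from total RNA with a kit that keeps strand information. Library size was 23090915 to 29446068 reads in floxed samples and 18022071 to 26803369 reads in the null samples. The deposited values are reads divided by a size factor for each library, called normalised reads below. The labels' design text speaks of biological duplicates, while 3 samples per group are present, and the labels do not say that these came from separate cultures. The p-values therefore measure the spread between these samples, part of which may be technical. Kat2a had 2228 ± 151 normalised reads in the floxed and 701 ± 122 in the null samples at day 3 (SD, n = 3 each), and 2207 ± 165 and 817 ± 67.5 at day 5. These values do not separate the deleted part of the gene from the rest.

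The number of copies of a gene sets the amount of its template, and in mammalian cells RNA from most genes on a gained chromosome is raised roughly with the copy number. Cultured mouse embryonic stem cells are known to gain whole chromosomes, chromosome 11 among them. Individual genes can depart from such a shift where feedback or a change of cell state sets their RNA level. DNA copy number was not measured in these samples, so the values below are RNA levels only.

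The promoters below show the starts of genes that the results turn on, each as the 250 bases before the RefSeq start (GRCm38.p6), 5′ to 3′ on the gene's strand. Capitals mark ACGTG on either strand, the core of the element bound by hypoxia-inducible factors. Slc16a3 and Aldoc lay above the rest of the chromosome at both days, and Srsf1 lay below it. The first is chr11:120948817-120949066 on the plus strand. The RefSeq start after it lies 587 bases downstream of the GENCODE start of Slc16a3, so this whole window lies inside the GENCODE gene. The second is chr11:78322823-78323072 on the plus strand. Its RefSeq start lies 105 bases downstream of the GENCODE start of Aldoc, so the end of this window is inside that gene. The third is chr11:88047123-88047372 on the plus strand, at the start of Srsf1.
Slc16a3: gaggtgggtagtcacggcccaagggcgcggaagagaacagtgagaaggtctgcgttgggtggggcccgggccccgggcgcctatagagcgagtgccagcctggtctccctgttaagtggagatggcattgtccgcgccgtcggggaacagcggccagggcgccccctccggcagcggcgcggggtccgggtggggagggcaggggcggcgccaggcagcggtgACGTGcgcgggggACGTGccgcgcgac
Aldoc: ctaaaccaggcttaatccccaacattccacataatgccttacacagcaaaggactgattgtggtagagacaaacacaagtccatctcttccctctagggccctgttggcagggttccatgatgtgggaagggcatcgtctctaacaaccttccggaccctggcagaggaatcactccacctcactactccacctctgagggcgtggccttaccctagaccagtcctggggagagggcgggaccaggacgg
Srsf1: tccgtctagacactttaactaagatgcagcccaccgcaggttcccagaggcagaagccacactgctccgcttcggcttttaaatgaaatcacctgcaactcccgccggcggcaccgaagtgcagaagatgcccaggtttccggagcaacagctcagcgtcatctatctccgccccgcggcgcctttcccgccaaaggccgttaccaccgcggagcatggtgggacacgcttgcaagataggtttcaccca
The Slc16a3 sequence holds ACGTG 2 times, and these letters are not in the other windows. Of 12402 promoters matched to genes of the table, 21.0% hold ACGTG, against 25.1% of the 777 promoters matched to the 978 genes. The 14 matched promoters of genes above the chromosome at both days hold it in 5 cases (35.7%), and the 14 of genes below it in 3 (21.4%). A match is a description of the letters and not a measured binding site.

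The 978 genes were shifted upward as a body in the null line at both days. For each library, the median over these genes of the log2 difference from the floxed mean was taken. It was 0.28, 0.34 and 0.44 in null replicates 1, 2 and 3 at day 3 and 0.27, 0.32 and 0.33 at day 5. In floxed libraries it lay between -0.03 and 0.02. All 6 null libraries were thus above all 6 floxed libraries, as the plot of library medians shows. The fitted log2 difference, null minus floxed, had a median of 0.35 at day 3 (1.27-fold, quartiles 0.21 to 0.50) and of 0.31 at day 5 (1.24-fold, quartiles 0.10 to 0.53). A log2 difference above 0 was found for 92.1% of the genes at day 3, where 49.3% of all tested genes had one, and for 84.5% at day 5, where 48% had one. It was found for 792 of the genes (81.0%) at both days. The genes took 9.04 ± 0.0861% of all reads in floxed day 3 samples and 11.5 ± 0.489% in null day 3 samples (SD, n = 3). At day 5 the shares were 9.33 ± 0.0558% and 11.6 ± 0.220%.

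**Figure D1:**
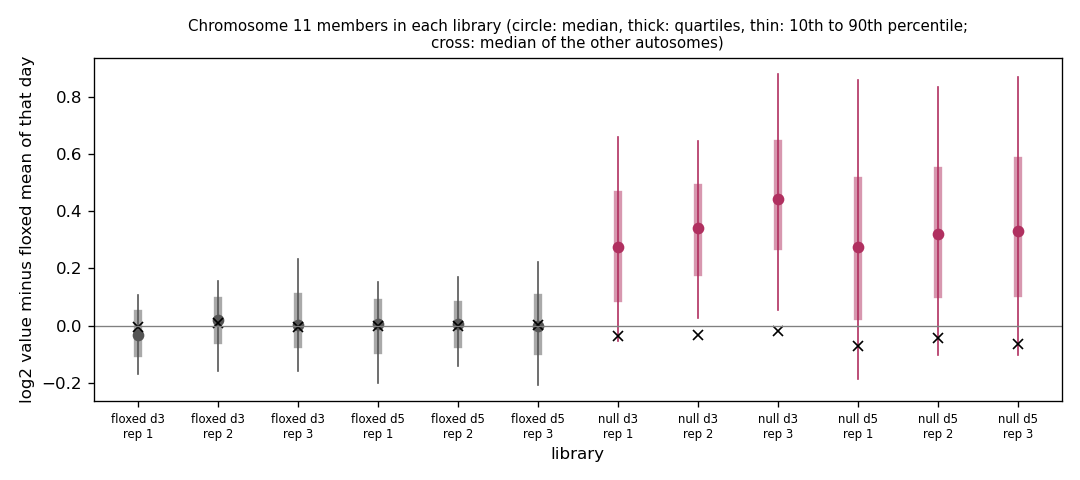
Median log2 difference from the floxed mean of the same day in each of the 12 libraries, for the 978 chromosome 11 genes (circles, with thick bars for the quartiles and thin lines for the wider percentile range named in the title) and for genes of the other autosomes at the same level (crosses). The null libraries have chromosome 11 medians of 0.27 to 0.44, above every floxed library, while their medians for the other autosomes lie between -0.07 and -0.02.

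Genes of the other 18 autosomes at the same level, 10536 in all, had a median log2 difference of -0.03 at day 3 and -0.06 at day 5. No other chromosome had a median above 0 at either day. The autosome medians ran from -0.07 on chromosome 8 to -0.01 on chromosome 9 at day 3, and from -0.10 to -0.02 on the same chromosomes at day 5. The X chromosome (429 genes) had medians of -0.02 and -0.06. The gap between chromosome 11 and the other autosomes was 0.38 at day 3 (1.30-fold) and 0.36 at day 5 (1.29-fold). For reference, a ratio of 3 to 2 has a log2 value of 0.58. That value was exceeded by 155 of the 978 genes (15.8%) at day 3 and by 203 (20.8%) at day 5, while 746 (76.3%) and 623 (63.7%) lay between 0 and it.

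**Figure D2:**
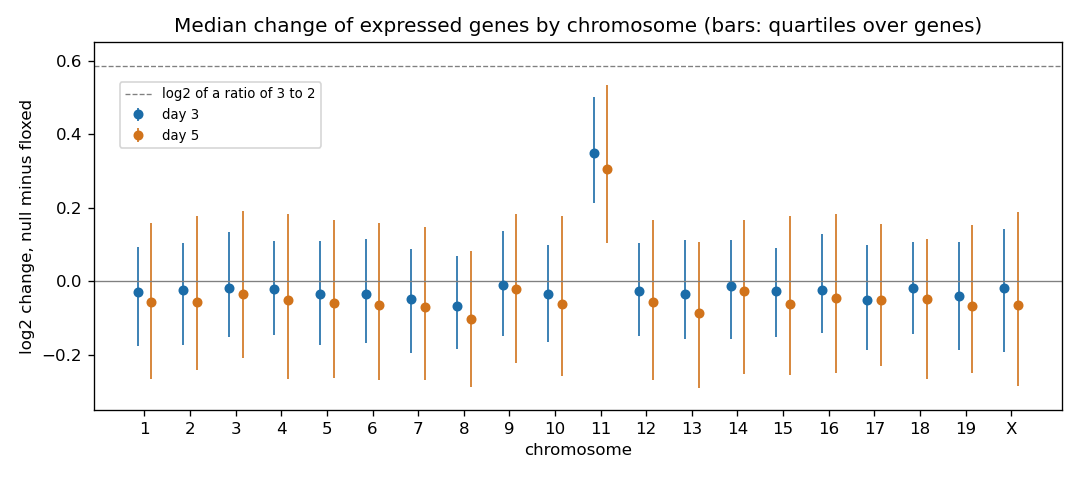
Median log2 difference (null minus floxed) of expressed genes on each chromosome at days 3 and 5, with bars for the quartiles over genes and a dashed line at the log2 of a ratio of 3 to 2. Chromosome 11 stands at 0.35 and 0.31, and the medians of the other chromosomes lie between -0.10 and -0.01.

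Single genes were tested with limma in 1 fit over 17000 genes of the table, with Benjamini-Hochberg adjustment and a threshold of 0.05. At day 3, 382 of the 978 genes (39.1%) were called higher in the null line, where 4.09% of all tested genes were. Only Hmga1b was called lower, where 2.03% of all tested genes were. With the replicate number as a block, 3 genes were called lower. At day 5, 462 genes (47.2%) were called higher and 27 lower, with 13% and 13.5% of all tested genes called. These counts come from the contrast on which the chromosome was chosen and describe it only. The day 3 number of genes called higher was 200 when floxed day 3 replicate 1 was left out and 190 when null day 3 replicate 3 was. Every null library lay above every floxed library for 606 genes (62.0%) at day 3, where 14.8% of all tested genes did so, and for 566 (57.9%) at day 5, where 19.8% did. The opposite arrangement was found for 9 and 50 of the genes, with 13.1% and 22.2% of all tested genes. At both days, 443 genes (45.3%) had all null libraries above all floxed libraries. The share of all tested genes with this arrangement at both days was not counted.

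Median differences were above 0 along nearly the whole chromosome. In windows of 5 megabases (Mb), 17 windows held at least 20 of the genes (884 together). Their medians ran from 0.28 (0 to 5 Mb) to 0.40 (100 to 105 Mb) at day 3. At day 5 they ran from 0.21 (115 to 120 Mb) to 0.37 (100 to 105 Mb). Of all 25 windows, 25 had a median above 0 at day 3 and 24 at day 5, the exception being 10 to 15 Mb with 3 genes and a median of -0.16. The 760 genes between 20 and 115 Mb had medians of 0.36 and 0.32, and the 86 genes up to 20 Mb had 0.32 and 0.30. The 132 genes past 115 Mb, the last stretch of the chromosome, had 0.28 and 0.23. In the single null libraries that last stretch gave medians of 0.21 to 0.44 at day 3 and 0.17 to 0.27 at day 5, against 0.30 to 0.45 and 0.30 to 0.34 for 20 to 115 Mb. The ranges overlapped at day 3 and did not overlap at day 5.

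The 75 genes within 2 Mb of Kat2a, the edited gene, had medians of 0.42 at day 3 and 0.41 at day 5, above the 0.35 and 0.31 of all 978 genes. In the single null libraries their medians were 0.35 to 0.51 at day 3 and 0.39 to 0.44 at day 5. The ranges for all 978 genes were 0.28 to 0.44 and 0.27 to 0.33, so they overlapped at day 3 and did not at day 5. Only 3 of the genes lay within 2 Mb of Grb10, with medians of 0.44 and -0.16. Grb10, an adaptor that restrains growth factor signalling, differed by a log2 value of -3.05 at day 3 and -6.66 at day 5. Neighbouring genes were weakly alike: the correlation of each gene's log2 difference with that of the next was 0.165 at day 3 and 0.120 at day 5 over 977 pairs, which share the same libraries. The running median of 51 genes had a range of 0.24 to 0.44 at day 3 and of 0.18 to 0.47 at day 5.

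**Figure D3:**
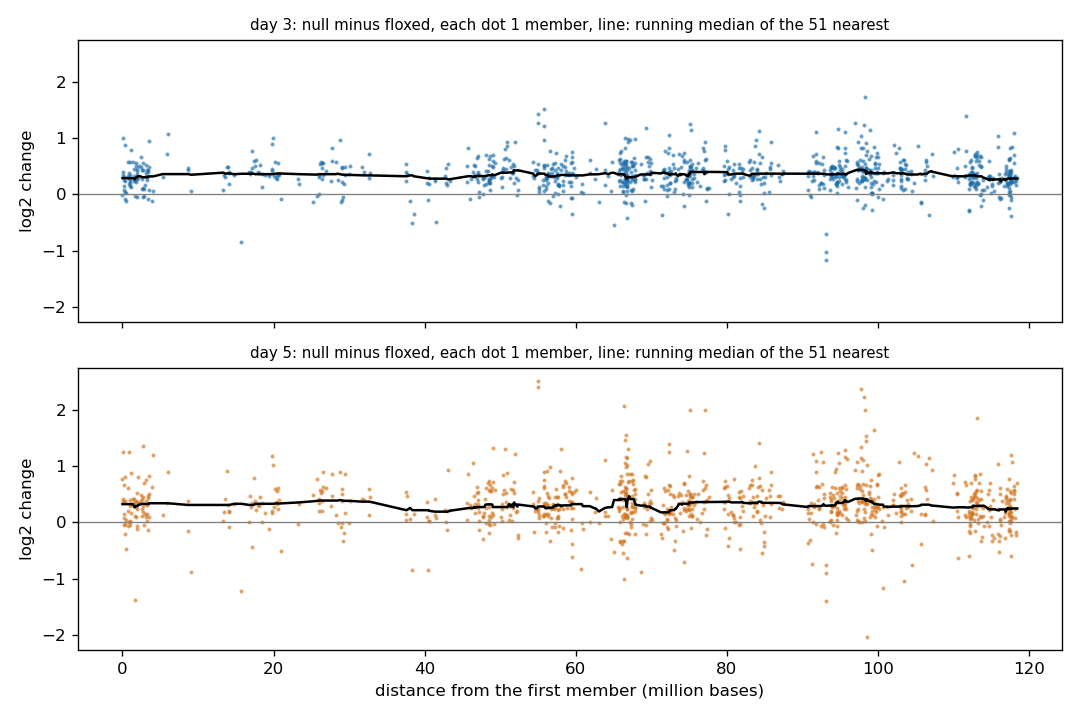
Log2 difference (null minus floxed) of each of the 978 genes against the distance of its start from the first of them, in megabases, at day 3 (top) and day 5 (bottom), with the running median of 51 genes as a line. The line stays above 0 along the whole length, from 0.24 to 0.44 at day 3 and from 0.18 to 0.47 at day 5, while single genes scatter on both sides.

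The size of the shift depended little on how strongly a gene was expressed at day 3. The genes were divided into quartiles of mean log2(value + 1), bounded by 6.01, 8.40, 9.89, 11.2 and 16.0. From the lowest to the highest quartile the median log2 difference was 0.36, 0.36, 0.35 and 0.33 at day 3, and the interquartile range narrowed from 0.49 to 0.21. At day 5 the medians were 0.40, 0.36, 0.33 and 0.21. Genes of the other autosomes in the same ranges of level also had a lower median in the highest range at day 5, from 0.02 to -0.13. The gap between chromosome 11 and those genes was therefore 0.38, 0.39, 0.40 and 0.34 from the lowest to the highest quartile at day 5, and 0.35, 0.40, 0.38 and 0.38 at day 3. The number of genes called higher by limma (adjusted p under 0.05) increased with level at day 3, with 38, 83, 119 and 142 calls, and was 86, 118, 145 and 113 at day 5.

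**Figure D4:**
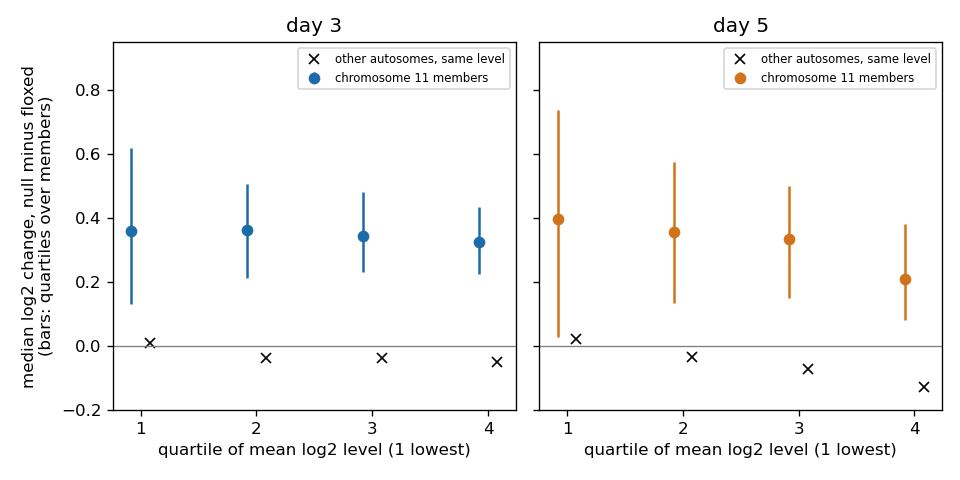
Median log2 difference (null minus floxed) in each quartile of expression level for the 978 genes (dots, with bars for the quartiles over genes) and for genes of the other autosomes in the same ranges (crosses), at both days. The dots lie between 0.21 and 0.40 and the crosses between -0.13 and 0.02.

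The level minimum of 6 sets the edge of the group. Just inside it were Galr2, a galanin receptor, with a level of 6.01 and log2 differences of 0.76 and 0.43, and Sox15, a transcription factor of stem cells, with 1.0 and -0.20. Just outside it were Sox9, with a level that rounds to 6.00 and differences of 0.27 and 0.92, and Chac2, with a level of 5.99 and differences of 0.29 and 0.34. The 352 tested chromosome 11 genes below the minimum had median log2 differences of 0.49 at day 3 and 0.44 at day 5, against 0.02 and 0.03 for 4472 such genes of the other autosomes. Above 0 were 78.4% and 67.6% of these 352 genes.

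Protein-coding genes and other genes differed in their medians. The 935 protein-coding genes had 0.36 at day 3 and 0.31 at day 5. The 43 others (long noncoding, antisense and small RNAs and pseudogenes) had 0.09 and 0.16, with 67.4% and 69.8% of them above 0. Of the 978 genes, 228 overlap another gene on the opposite strand, and whether the authors' counting used strand is not given in the sources used here. The 750 genes without such a neighbour had medians of 0.36 and 0.30.

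Lists of genes by function are described by their median log2 difference and by their limma calls. The medians stand beside 0.35 and 0.31 for all 978 genes and -0.0036 and -0.020 for all 17000 tested genes. Called higher at days 3 and 5 were 39.1% and 47.2% of the 978 genes, and 4.09% and 13% of all tested genes. Called lower were 0.102% and 2.76%, against 2.03% and 13.5%. Above 0 were 92.1% and 84.5%, against 49.3% and 48%. Genes for large protein complexes had medians above 0 at both days. Of 8 proteasome genes, which encode subunits and activators of the main protein-degrading machine, 4 were called higher at day 3 and 2 at day 5 and none lower at either day. Their median log2 differences were 0.32 and 0.19. Psmb6, a catalytic core subunit, had 6424 ± 247 normalised reads in the floxed and 8474 ± 1001 in the null samples at day 3, and 6035 ± 140.4 and 6819 ± 753 at day 5 (SD, n = 3). It passed the test at day 3 (limma, adjusted p = 0.0264, and up to 0.107 without 1 library, null day 3 replicate 3) and not at day 5. The 8 cytosolic ribosomal protein genes had medians of 0.24 and 0.19, with 3 higher at each day. Among them Rack1, a ribosome-bound scaffold, had the highest level and differed by 0.23 ± 0.08 and 0.05 ± 0.08 (log2, SE), and neither passed the test. Rpl23a, a protein of the large subunit, differed by 0.20 ± 0.07 at day 3 without passing and rose by 0.30 ± 0.07 at day 5 (limma, adjusted p = 0.00589). The mitochondrial ribosome list of 13 genes includes Mrm1 and Mrm3, which encode RNA methyltransferases and not ribosomal proteins. The 13 genes had medians of 0.35 and 0.24, with 4 and 3 higher. Mrpl45 rose by 0.47 ± 0.07 at day 3 and 0.30 ± 0.07 at day 5 (limma, adjusted p = 0.00315 and 0.0107). Mrpl12 differed by 0.05 at day 3 and 0.02 at day 5 with an SE of 0.14. The 10 genes of oxidative phosphorylation and its assembly had medians of 0.30 and 0.17, with 3 and 4 higher, and 4 of them were called below the chromosome at day 5. No gene of these 4 lists was called lower at either day.

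Genes of cell division were above 0, as most of the 978 genes were. All 21 genes of mitosis and the spindle had a log2 difference above 0 at both days, where 81.0% of all 978 genes had one. Their medians were 0.40 and 0.41. Of these 21, 12 were called higher at day 3 and 14 at day 5, where 39.1% and 47.2% of all 978 genes were. Top2a, the topoisomerase that untangles chromosomes in mitosis, had 32868, 31522 and 33887 normalised reads in the floxed samples and 49180.3, 44822 and 56038 in the null samples at day 3. At day 5 it had 24854, 24269 and 30907 against 37368, 38301 and 43936. The groups did not overlap at either day, and limma gave log2 differences of 0.60 ± 0.11 (SE, adjusted p = 0.00574) and 0.58 ± 0.11 (adjusted p = 0.00196). Of 17 genes of DNA replication and repair, 11 and 12 were called higher, with medians of 0.54 and 0.38. Brca1, which acts in repair by homologous recombination, rose by 0.54 ± 0.07 at day 3 and 0.38 ± 0.07 at day 5 (limma, adjusted p = 0.00139 and 0.00179).

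The 16 genes of Mediator, the Gcn5-containing SAGA complex and the RNA polymerase II machinery had medians of 0.38 and 0.32, with 10 and 8 called higher and none lower. Usp22, the ubiquitin protease of SAGA, had 6199.6 ± 402 and 8424 ± 722 normalised reads at day 3 and 7705 ± 260.1 and 9411 ± 145 at day 5. Of 23 chromatin and Polycomb genes, 11 and 13 were called higher and 0 and 1 lower, with medians of 0.31 and 0.37. Suz12, a core subunit of the Polycomb complex that methylates histone H3, had 5389, 5389 and 5203 in floxed and 10155, 8784 and 9446 in the null samples at day 3. It had 4122, 3964 and 4103 against 7361, 6248 and 6699 at day 5. It was among the genes above the chromosome at both days, and its log2 differences were 0.83 ± 0.07 and 0.73 ± 0.07 (limma, adjusted p = 0.000115 and 7.29e-05). H3f3b, one of the genes for histone H3.3, rose by 0.71 ± 0.09 and 0.82 ± 0.09 (adjusted p = 0.00158 and 0.000159 by limma). Suz12 was chosen for mention after its values were seen.

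Most signalling genes were above 0, as were most of the 978 genes, and the interferon list had larger medians. Of 29 kinase signalling genes, 29 were above 0 at day 3 and 28 at day 5, where 92.1% and 84.5% of all 978 genes were. Their medians were 0.35 and 0.38. Of them 13 and 15 were called higher, where 39.1% and 47.2% of all 978 genes were. The 13 Wnt pathway genes had medians of 0.30 and 0.24, with 5 and 7 higher and 0 and 1 lower. At each day 11 of the 13 were above 0. The 9 interferon-inducible and innate immune genes had medians of 0.82 and 1.23, with 6 called higher at day 3 and 8 at day 5. Of these, 2 were called above the chromosome at day 3 and 6 at day 5. The p53, Stat and zinc finger factors, 19 genes, had medians of 0.43 and 0.59, with 8 and 12 higher and 0 and 2 lower. At each day 15 of these 19 were above 0. Irf1, a factor that switches on interferon target genes, had 1366 ± 185 normalised reads in the floxed and 2423 ± 635 in the null samples at day 3, and 929 ± 200.2 and 2296 ± 476 at day 5. Its log2 differences were 0.80 ± 0.20 (limma, adjusted p = 0.0333) and 1.31 ± 0.20 (adjusted p = 0.000804). The day 3 call of Irf1 ended when floxed day 3 replicate 1 was left out (limma, adjusted p = 0.132) and without any 1 of 4 other day 3 libraries.

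Metabolic genes were mixed at day 5. The 9 genes of glycolysis and the hypoxia response had medians of 0.68 and 0.76, with 5 and 6 called higher and 0 and 1 lower. The 16 genes of lipid and sterol synthesis had medians of 0.43 at day 3 and 0.22 at day 5, with 9 and 6 higher. Acly, which makes cytosolic acetyl-CoA, rose by 0.43 ± 0.09 at day 3 (limma, adjusted p = 0.0192) and differed by 0.02 ± 0.09 at day 5. Without null day 3 replicate 3 its day 3 adjusted p by limma was 0.0626. The 11 matrix and fibroblast genes had medians of 0.61 and 0.50, with 3 and 4 higher. The 5 genes of imprinted domains other than Grb10 (Cobl, Ddc, Zrsr1, Commd1 and Wdr92) had medians of 0.44 and 0.17, with 3 higher at day 3, and 1 higher and 1 lower at day 5. The 3 expressed HoxB genes, Hoxb2, Hoxb3 and Hoxb3os, had medians of -1.01 and -0.89, and none passed the test. With the replicate number as a block, limma called Hoxb3 lower at day 5 (log2 -1.40 ± 0.65 without the block, adjusted p = 0.133, and 0.00172 with it) and Hoxb3os lower at day 3 (adjusted p = 0.223, and 0.0458 with the block). Hoxb2, a patterning factor of the hindbrain, ranged from 64.3 to 372 normalised reads in the floxed and from 37.5 to 117 in the null samples at day 3, so the groups overlapped. The 4 other developmental transcription factors, Etv4, Vezf1, Meis1 and Sox15, had medians of 0.49 at day 3 and -0.70 at day 5. At day 3, 3 of the 4 were above 0 and 1 was called higher. At day 5, 0 of the 4 were above 0, 1 was called lower and 2 were called below the chromosome.

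To find the genes that did not follow the chromosome, its median difference at each day was subtracted from all chromosome 11 genes in the null samples and the whole table was fitted again with limma. The subtracted value comes from the same libraries. At day 3, 22 genes (2.25%) were called below the chromosome and 21 (2.15%) above it, with 1.45% and 1.29% of all tested genes called. At day 5, 127 (13.0%) were called below and 130 (13.3%) above, against 13.8% and 10.7% of all tested genes. At both days, 18 (1.84%) were below, where 1.02% of all tested genes were, and 16 (1.64%) above, where 0.947% were. The day 5 shares were near those of all tested genes. Those for day 3 and for both days were somewhat higher, and the tested genes include genes of lower level. With the replicate number as a block the day 3 counts were 42 below and 56 above. The both-day counts of 18 and 16 were not recounted with the block or with 1 library left out. Leaving out 1 library gave 5 to 25 below and 3 to 30 above at day 3. The lowest count below was without null day 3 replicate 3, and the lowest count above was without floxed day 3 replicate 1. Each of the other day 3 libraries also lowered both counts by more than 1.5-fold. Without null day 5 replicate 2, 12 remained above at day 3, and without floxed day 5 replicate 3, 84 remained below at day 5.

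The 18 genes below the chromosome at both days included regulators of splicing. They were Ntn1, Hspd1-ps3, Slc2a4, Hmga1b, AA465934, Slc9a3r1, Slc25a10, Srsf1, Srsf2, Flcn, Trp53, Zfp207, Tug1, Tbc1d16, Hnrnph1, Drg2, Morc2a and G3bp1, and 3 of them are not protein coding. Among the 31 RNA processing factors on the chromosome, 15 were called higher at day 3 and 9 at day 5, 0 and 2 lower, and 4 and 8 below the chromosome. Srsf1 (ENSMUSG00000018379.17, positions 88047373 to 88053755), which guides splice site choice, had 16792, 17187 and 16442 normalised reads in the floxed and 13250.1, 16103 and 13377 in the null samples at day 3. The day 5 values were 18522, 16336 and 17801 against 12588, 13451 and 13138. All null samples lay below all floxed samples at both days. Against the floxed line its log2 difference was -0.24 ± 0.08 at day 3 (limma, adjusted p = 0.0863) and -0.43 ± 0.08 at day 5 (adjusted p = 0.0023). Against the chromosome the values were -0.59 (adjusted p = 0.00336) and -0.73 (adjusted p = 0.000133) in the limma fit. Srsf2, of the same family, lay below the chromosome by -0.56 and -0.63 (limma, adjusted p = 0.00506 and 0.000322). Hnrnph1, another splicing regulator, differed from the floxed line by -0.04 and -0.13, and both days were below the chromosome (limma, adjusted p = 0.0181 and 0.00151). The day 3 call of Hnrnph1 ended when floxed day 3 replicate 1 or 3 or null day 3 replicate 3 was left out (limma, adjusted p up to 0.0947). Srsf2 and Hnrnph1 were chosen for mention after their values were seen, and Srsf2 overlaps 2 other genes, Mettl23 and Mfsd11.

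Trp53, the tumour suppressor p53, was also chosen after its values were seen. It had 2465, 2614 and 2704 normalised reads in the floxed and 2273, 2442 and 2346 in the null samples at day 3, and 3020.3, 2717 and 2769 against 2537, 2079.6 and 2205 at day 5. Its log2 difference was -0.14 ± 0.08 at day 3 (limma, adjusted p = 0.326) and -0.32 ± 0.08 at day 5 (adjusted p = 0.0111). Against the chromosome it was -0.49 (limma, adjusted p = 0.00918) and -0.63 (adjusted p = 0.000329). Its day 3 call against the chromosome ended when null day 3 replicate 3 was left out (adjusted p = 0.0588 by limma). Zfp207, a zinc finger protein of the mitotic spindle, had 7898, 7759 and 8166 in floxed and 7046, 7302 and 7586 in the null samples at day 3, and 7773, 7227 and 8369 against 6178, 6586 and 7167 at day 5. Both genes had every null sample below every floxed sample at both days, and their day 3 differences from the floxed line did not pass the test. Zfp207 fell by 0.23 ± 0.07 at day 5 (limma, adjusted p = 0.0314), a call that ended when floxed day 5 replicate 3 was left out (adjusted p = 0.125) or any 1 of 3 other day 5 libraries. It also ended with upper-quartile scaling (-0.18, adjusted p = 0.0721) and with scaling without chromosome 11 genes (-0.20, adjusted p = 0.0542). Its departure from the chromosome was -0.47 at day 3 and -0.53 at day 5 (limma, adjusted p = 0.00688 and 0.000379), and both calls held in every alternative run.

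Slc9a3r1, a scaffold under the cell membrane, had 1431, 1692 and 1639.7 normalised reads in the floxed and 1209.8, 1503 and 1182 in the null samples at day 3. It had 2042, 1871 and 1785 against 1391, 1314 and 1073 at day 5. The groups overlapped at day 3 and did not at day 5, when it fell by 0.60 ± 0.12 (limma, adjusted p = 0.00307). Ntn1, the secreted guidance cue netrin-1, had 293, 398 and 521 in floxed and 254, 258 and 294 in the null samples at day 3, and 2683, 2017 and 2935 against 1608, 1964 and 1689 at day 5. Its differences of -0.55 ± 0.18 and -0.52 ± 0.18 from the floxed line did not pass the test (limma, adjusted p = 0.096 and 0.0505), while both passed against the chromosome (adjusted p = 0.0251 and 0.00709). The differences from the floxed line did pass with the replicate block (limma, adjusted p = 0.0448 and 0.0239) and with DESeq2 (adjusted p = 0.0303 and 0.0179). At day 5 the difference also passed with edgeR (adjusted p = 0.0435) and with a pseudocount of 5 (limma, adjusted p = 0.0481). Slc2a4, a glucose transporter regulated by insulin, had 235, 183 and 199.5 in floxed and 188, 153 and 123 in the null samples at day 3, and 233, 213 and 259 against 179.7, 143 and 134 at day 5. Its log2 difference was -0.42 ± 0.18 at day 3 (limma, adjusted p = 0.179) and -0.63 ± 0.18 at day 5 (adjusted p = 0.0202, and 0.0745 without null day 5 replicate 3). Ntn1 and Slc2a4 also overlapped between the groups at day 3 and did not at day 5. Leaving out single libraries ended the day 3 call against the chromosome for all 3 of these genes, with the highest limma adjusted p of 0.0864 for Slc9a3r1 (without null day 3 replicate 3), 0.0743 for Ntn1 (without null day 3 replicate 3) and 0.162 for Slc2a4 (without floxed day 3 replicate 1).

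Hmga1b, a near copy of a chromatin protein gene on another chromosome, was the gene called lower at day 3, by -0.38 ± 0.08 (limma, adjusted p = 0.0125), and it was lower at day 5 by -0.60 ± 0.08 (adjusted p = 0.000292). Its day 3 call was lost without floxed day 3 replicate 2 and without null day 3 replicate 3 (limma, adjusted p = 0.0532 and 0.0571). Reads of near copies can be split between loci, so its values are uncertain, as are those of the pseudogenes Hspd1-ps3 (-0.51 ± 0.19 and -0.85 ± 0.19) and Hist3h2bb-ps (1.22 ± 0.14 and 0.90 ± 0.14). The long noncoding RNA Tug1 overlaps Morc2a on the opposite strand and differed by -0.12 ± 0.09 and -0.47 ± 0.09. AA465934 differed by -0.34 ± 0.15 and -0.42 ± 0.15, and the day 5 value passed with the replicate block (limma, adjusted p = 0.0361 against 0.0526 without it). The day 3 call against the chromosome was lost without 1 library for Hspd1-ps3 (limma, adjusted p up to 0.117, without floxed day 3 replicate 1), AA465934 (0.137, without null day 3 replicate 3) and Tug1 (0.108, without null day 3 replicate 3).

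Across all 978 genes, 77 had a log2 difference at or below 0 at day 3 and 152 at day 5, and 43 at both days, 36 of them protein coding. Beside the genes named above these 43 included the developmental regulators Meis1, Bcl11a, Wnt3, Axin2, Hoxb2 and Hoxb3. Meis1, a homeodomain factor, differed by -0.85 ± 0.84 and -1.21 ± 0.84, and neither passed the test. Without floxed day 3 replicate 3 its day 3 value was 0.31. Wnt3, a ligand needed to start gastrulation, differed by -0.09 ± 0.32 at day 3 and fell by 1.17 ± 0.32 at day 5 (limma, adjusted p = 0.0171). That call ended without floxed day 5 replicate 2 and without null day 5 replicate 2 or 3 (adjusted p up to 0.0682 by limma). Axin2, a target and inhibitor of the Wnt pathway, differed by -0.14 ± 0.15 and -0.39 ± 0.15 without passing the test, and the day 5 value passed with the replicate block (limma, adjusted p = 0.0349 against 0.0668). These 3 genes were chosen after their values were seen. A fall of more than 1.5-fold was seen for 4 genes at day 3 and 22 at day 5.

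The 16 genes above the chromosome at both days were Alkbh5, Rad51d, Suz12, Slc16a3, Zrsr1, Acadvl, Trim25, Gm2a, P4ha2, Cnp, Cpeb4, Tex14, Hist3h2bb-ps, Aldoc, Myh3 and Ifi35. Aldoc, an aldolase of glycolysis (positions 78322968 to 78327781), had 999, 895 and 835 normalised reads in the floxed and 2578, 1763 and 2192 in the null samples at day 3. At day 5 it had 204, 232 and 211 against 858, 796 and 949. All null samples were above all floxed samples, and the log2 differences were 1.24 ± 0.13 and 2.0 ± 0.13 (limma, adjusted p = 0.000485 and 4.85e-06). Slc16a3, a lactate exporter (positions 120948480 to 120960868), had 6389, 6727 and 6227 in floxed and 11996, 11001 and 11748 in the null samples at day 3. The day 5 values were 1984, 2845 and 2353 against 5710.1, 4724 and 4655. Its log2 differences were 0.84 ± 0.11 and 1.08 ± 0.11 (limma, adjusted p = 0.00173 and 0.000101). These are the genes whose promoters are shown above together with that of Srsf1. Acadvl, an enzyme of fatty acid oxidation in mitochondria, had 699, 788 and 819.9 in floxed and 1304, 1276 and 1862 in the null samples at day 3, and 750.3, 882 and 908 against 1848, 2140.2 and 2276 at day 5. It overlaps Dvl2 on the opposite strand. Neither Slc16a3 nor Acadvl overlapped between the groups at either day.

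Ifi35, an interferon-induced gene (positions 101448407 to 101458698), had 59.1, 106 and 94.3 normalised reads in the floxed and 165, 279.8 and 480.1 in the null samples at day 3. At day 5 it had 111, 87.1 and 116 against 362, 399.6 and 512. The null samples were above the floxed samples at both days, with a wide spread among null samples at day 3, and the log2 differences were 1.73 ± 0.32 and 2.0 ± 0.32 (limma, adjusted p = 0.00834 and 0.00104). Trim25, a ubiquitin ligase of the antiviral response, rose by 0.93 ± 0.14 and 0.90 ± 0.14 (limma, adjusted p = 0.00248 and 0.000745). Myh3, the embryonic myosin heavy chain of skeletal muscle, had 72.6, 63.3 and 65.3 in floxed and 139, 165 and 190.4 in the null samples at day 3, and 49.3, 31.8 and 40.2 against 80.2, 89.7 and 90.9 at day 5, without overlap at either day. Tex14, a gene of the bridges between germ cells, differed by 1.13 ± 0.14 and 1.40 ± 0.14. Zrsr1, an imprinted gene lying inside Commd1 on the opposite strand, had 237, 214 and 222 in floxed and 387, 426 and 452 in the null samples at day 3, and 278, 207 and 221 against 465, 546 and 586 at day 5. Commd1 itself rose by 0.46 ± 0.09 at day 3 (limma, adjusted p = 0.00874) and differed by 0.17 ± 0.09 at day 5.

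Several day 3 calls above the chromosome ended when 1 library was left out or a setting was changed. Without floxed day 3 replicate 1 the limma adjusted p was 0.144 for Ifi35 and 0.146 for Acadvl. It was 0.0962 for Myh3 without null day 3 replicate 3, 0.0553 for Tex14 without floxed day 3 replicate 3, 0.139 for Zrsr1 without floxed day 3 replicate 2 and 0.135 for Slc16a3 without null day 3 replicate 1. With all libraries, Zrsr1 missed the threshold with a pseudocount of 5, no filter on low values, scaling without chromosome 11 genes, edgeR and centring on the running median (adjusted p = 0.0503 to 0.0524). Acadvl missed it with scaling without chromosome 11 genes (limma, adjusted p = 0.0504), and Ifi35 with centring on the running median (adjusted p = 0.0516). Below the chromosome, Slc2a4 missed it with that centring (limma, adjusted p = 0.0506). As changes from the chromosome, the day 3 calls of Aldoc and Hist3h2bb-ps above it and of Hmga1b and Srsf1 below it held without any 1 of the 12 libraries. The day 5 calls of changes from the chromosome held without any 1 library for all 16 genes of the naming rule, 8 below and 8 above.

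**Figure D5:**
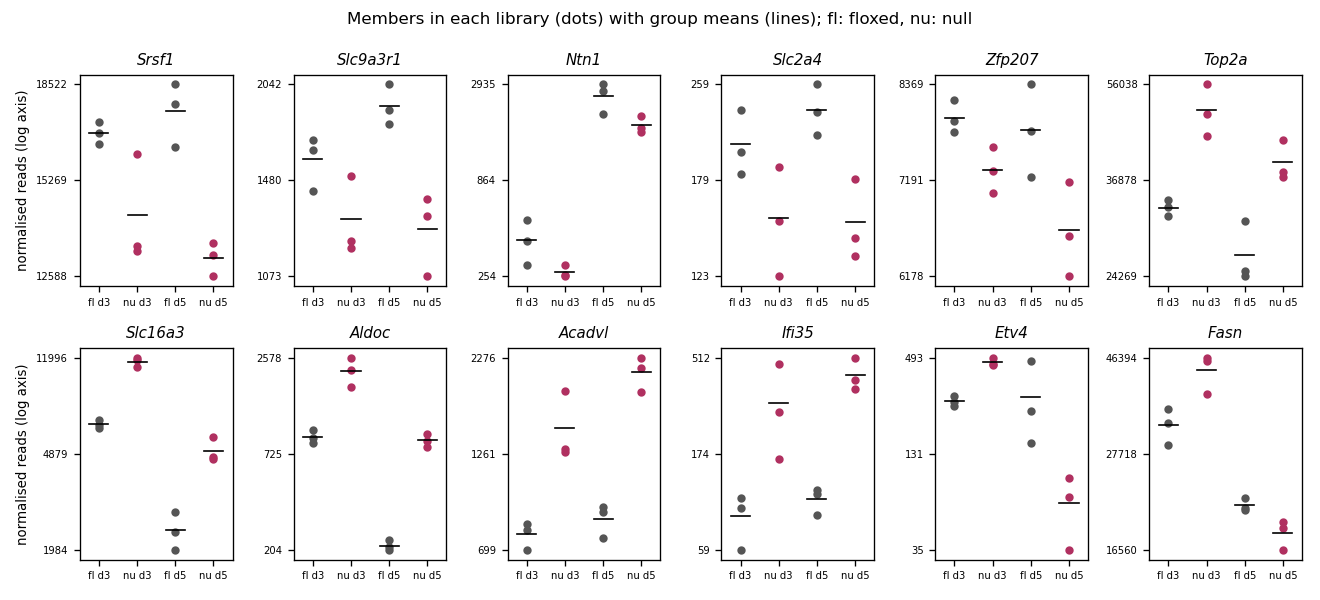
Normalised reads (log axis, with the lowest, geometric middle and highest values marked) of 12 of the genes in each library, with group means as lines, for floxed (fl) and null (nu) samples at days 3 and 5. Srsf1, Zfp207 and Slc2a4 have lower means in the null samples at both days, Top2a, Slc16a3, Aldoc, Acadvl and Ifi35 have higher ones, and Etv4 and Fasn are higher at day 3 and lower at day 5.

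The median shift was of similar size at both days, while single genes varied. Across the 978 genes the day 3 and day 5 log2 differences had a Pearson correlation of 0.585 and a Spearman correlation of 0.584, over separate libraries at each day. The change of the difference from day 3 to day 5 had a median of -0.05 (quartiles -0.20 to 0.11), against -0.02 for the other autosomes. Limma called this interaction for 5 of the genes, 3 higher and 2 lower at day 5, where 0.247% and 0.229% of all tested genes were called. The count was 27 with the replicate number as a block, and it was 0 when 1 library was left out in 8 of 12 cases (floxed day 3 replicates 1 and 2, floxed day 5 replicate 3, null day 3 replicates 1 and 2, and all 3 null day 5 replicates). Within the floxed line, 281 of the genes rose and 165 fell from day 3 to day 5 (22.5% and 19.2% of all tested genes), and within the null line 257 rose and 232 fell (22.6% and 21.9%).

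Etv4, an ETS factor downstream of FGF signalling, had 256, 293 and 268 normalised reads in the floxed and 448, 493 and 453 in the null samples at day 3. The day 5 values were 236, 153 and 472 against 93.8, 35.0 and 72.2. The null samples were above the floxed samples at day 3 and below them at day 5. The change of the log2 difference was -2.81 ± 0.52 (limma, adjusted p = 0.0368). Dcxr, a reductase of sugars and carbonyls, had 325, 403 and 365 in floxed and 329, 304 and 442 in the null samples at day 3, which overlapped, and 315, 333 and 274 against 709, 741 and 670.3 at day 5, which did not. Evpl, envoplakin of the cell envelope of stratified epithelia, had 379, 351 and 396 against 549.9, 628 and 654 at day 3 and 98.7, 81.3 and 65.5 against 285, 317 and 282 at day 5. Its null samples were higher at both days and by more at day 5. Slc1a4, a transporter of neutral amino acids, had 1214, 1110.0 and 735 in floxed and 1848, 1849 and 1448 in the null samples at day 3, and 964, 904 and 752 against 673, 661 and 597 at day 5. Its day 5 difference of -0.43 ± 0.17 passed with the replicate block (limma, adjusted p = 0.00502 against 0.0718), and its interaction call ended with upper-quartile scaling and with edgeR (adjusted p = 0.0533 and 0.0503). Leaving out 1 library raised the highest limma adjusted p of the interaction to 0.0826 for Dcxr (null day 5 replicate 2), 0.0968 for Evpl and 0.0989 for Etv4 (floxed day 3 replicate 1), 0.112 for Aebp1 (floxed day 3 replicate 1) and 0.115 for Slc1a4 (null day 3 replicate 2).

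Markers of the cell types an embryoid body can hold were measured in the same libraries. Of 6 pluripotency and epiblast markers, limma called 2 lower in the null line at day 3 and 5 at day 5, where 2.03% and 13.5% of all tested genes were. Their summed level at day 3 was 35586 to 48029 normalised reads in the floxed and 31074 to 41217 in the null samples, which overlapped. At day 5 it was 15768 to 21603 in the floxed and 11423 to 14488 in the null samples. Dnmt3b had the highest mean level among them. The 3 neural markers, of which Sox1 had the highest mean level, summed to 1008 to 3571 in floxed and 653 to 1347 in the null samples at day 3, which overlapped. At day 5 they summed to 3837 to 5474 in floxed and 1987 to 3174 in the null samples, with 1 called lower. The 3 streak and mesoderm markers summed to 174 to 212 in floxed and 203 to 219.9 in the null samples at day 3. At day 5 their sums were 129.7 to 406 and 81.6 to 116, which did not overlap, with 1 called lower. Taken singly, each of the 3 overlapped between the groups at day 5. T and Eomes had lower means in the null samples there, and Mixl1 had a higher one (21.1 against 13.5 in floxed). The 5 endoderm markers summed to 421 to 1774 in floxed and 806 to 1116 in the null samples at day 5, with 0 called. Of the feeder and fibroblast markers, 10 of 11 were in the table and 9 tested, with 1 called higher in the null line at day 3 and 0 at day 5. Their summed levels overlapped between the genotypes, with 2260.1 to 3716 and 1619 to 2714 at day 3 and 3536 to 10256 and 4702 to 6294 at day 5. By single gene, every null sample lay above every floxed sample for Fbn1 at day 3 and for Col1a1, a chromosome 11 gene, at day 5. Every null sample lay below every floxed sample for Dcn and Acta2 at day 3. The part of these differences in the values of single chromosome 11 genes, Wnt3 and Axin2 among them, was not tested. In bulk RNA, fewer cells of a type and less RNA per cell cannot be told apart.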

How the data were processed

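Stranded total RNA libraries (8 PCR cycles, per the labels' protocols) of 12 samples were sequenced. Build mm10 and, without roles, HTSeq 0.6.0, DESeq 1.16.0, TopHat2 2.0.10 and CASAVA 1.8.2 are named in the submitters' processing notes. The deposited signal values are read counts that the authors divided by a size factor per library: 100% of the values are whole multiples of 1 read within 0.01, so reads were recovered. The labels' design text speaks of biological duplicates, while 3 samples per group are present and no 2 libraries were copies.

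Identifiers were matched to GENCODE (18199 of 18269, 70 unmatched). The 17000 genes with a group mean of at least 10 were tested two-sided with limma 3.58.1 (R 4.3.3). The fit took log2(value + 1) of all 12 samples with a mean for each of the 4 groups and used Benjamini-Hochberg adjustment over all of them. Fold changes on this scale understate the change of low genes. edgeR 4.0.16 and DESeq2 1.42.0 on recovered reads, other scalings, pseudocounts, filters and leaving out each library were alternatives. The scripts were tested on simulated data. Named genes were the 8 with the lowest and the 8 with the highest average change among those called below or above the chromosome at both days, the 5 with the smallest interaction p, the 2 most expressed of each list and the 2 on each side of the level minimum. Genes of other lists are described by counts. The genes and lists were chosen with earlier results of these data known.

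Same-numbered null and floxed samples deviated together over the genes: their correlations were 0.270 to 0.372 at day 3 and 0.247 to 0.424 at day 5, against at most -0.0175 and 0.0268 for different numbers. The pairing comes from the numbers in the labels and this check, and blocked counts are printed beside the results they move.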

Additional observations from a re-analysis of the deposited data

Results flagged for a closer look

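For 5 chromosome 11 genes the difference between the null and floxed lines itself differed between the days in the limma interaction test. Of the 978 genes 0.307% were called higher and 0.204% lower at day 5, near the 0.247% and 0.229% of all tested genes. The change of the log2 difference from day 3 to day 5 was 1.24 ± 0.20 for Dcxr (SE, adjusted p = 0.0308), 1.15 ± 0.20 for Evpl (adjusted p = 0.0345) and -2.81 ± 0.52 for Etv4 (adjusted p = 0.0368). It was 1.40 ± 0.26 for Aebp1 (limma, adjusted p = 0.0396) and -1.21 ± 0.24 for Slc1a4 (adjusted p = 0.0457). Aebp1, an extracellular matrix protein gene, had 346 ± 35.2 normalised reads in the floxed and 336 ± 22.1 in the null samples at day 3 (SD, n = 3), and 195 ± 46.8 and 499 ± 113 at day 5. Each of the 5 calls was lost without at least 1 library.

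Fasn, the fatty acid synthase gene, was higher in every null sample at day 3 and lower in every null sample at day 5. It had 29012, 35269 and 32706 normalised reads in the floxed and 38292, 45716 and 46394 in the null samples at day 3, and 21909.7, 20778 and 20524 against 18611, 16560.1 and 19224 at day 5. The change of its log2 difference, -0.65 ± 0.13, did not pass the interaction test (limma, adjusted p = 0.0513). In all, 7 of the 978 genes turned in this way from above to below in every library (Etv4, G3bp1, Atox1, Slc1a4, Fasn, Usp36 and Tbcd), and 0 turned the other way. The shares of all tested genes that turned were not counted, so these counts have no background beside them.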

How the results depend on the processing

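The direction of the median shift of the members held in every alternative run. The median log2 change of members, day 5 (0.31), was 0.35 with upper-quartile scaling and 0.24 as the log2 ratio of summed values. Scaling without chromosome 11 genes gave 0.37 and 0.33 for the 978 genes and -0.01 and -0.03 for the other autosomes. The highest window median, day 5 (0.37), was 0.42 with upper-quartile scaling, 0.40 with scaling without chromosome 11 genes and 0.45 in windows of 50 consecutive members. The median of level quartile 1, day 5 (0.40), was 0.44, 0.42, 0.45 and 0.44 with upper-quartile scaling, scaling without chromosome 11 genes, protein-coding genes only and no gene on the opposite strand, an alternative chosen after seeing the data. The median of level quartile 3, day 5 (0.33), was 0.38 and 0.36 with the first 2 of these, and the median of level quartile 4, day 5 (0.21), was 0.26, 0.24 and, with edgeR, 0.23. With the replicate block, 3 members were called lower in null, day 3 (1 without it), 56 above and 42 below the chromosome, day 3 (21 and 22), and 27 in the interaction (5). The block changed no other count by more than 1.5-fold, and the calls it added for named genes stand beside them, apart from Psme4 at both days (adjusted p = 0.0225 and 0.00311 by limma) and Itga3 at day 3 (0.0342). With DESeq2 these counts were 2, 50, 46 and 39. Leaving out each library gave 190 to 395 called higher and 0 to 2 lower at day 3, 3 to 30 above and 5 to 25 below at day 3, 84 to 132 below at day 5 and 0 to 7 in the interaction. The same settings gave 0.37 to 0.42 for the highest window, 0.36 to 0.42 for quartile 1 and 0.19 to 0.22 for quartile 4 at day 5. The cause was not tested, other than that fewer samples were fitted.

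Reversals were seen only for single genes at a day when their difference passed no test. Sparc log2 change, day 3 (-0.01), was 0.0192 with scaling without chromosome 11 genes, and Sox9 log2 change, day 3 (0.27), was -0.0246 with edgeR and -0.0182 with DESeq2. Leaving out single libraries gave -0.126 to 0.135 for Sparc, -0.284 to 0.884 for Sox9, -0.128 to 0.0127 for Aebp1, -0.20 to 0.0687 for Dcxr, -0.127 to 0.197 for Mrpl12, -0.0345 to 0.354 for Sqstm1, -1.71 to 0.313 for Meis1 and -0.264 to 0.0631 for Wnt3 at day 3. At day 5 it gave -0.104 to 0.101 for Acly, -0.00563 to 0.155 for Atp5h, -0.00561 to 0.65 for Galr2, -0.0602 to 0.106 for Mrpl12, -0.0155 to 0.136 for Rack1 and -0.341 to 0.0744 for Sox15.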
